A study of Homo sapiens with 16 samples.

Results

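The mitochondrial ribosomal proteins are the nuclear-encoded proteins named MRPL and MRPS that build the ribosome of mitochondria. Members were taken by gene symbol alone, as MRPL or MRPS followed by a number and, in some cases, a letter from A to C. By this rule 78 of the 35606 genes in the expression table were members, 49 named for the large subunit and 29 for the small subunit. The rule used no measured value.

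The data were RNA sequencing profiles of 16 libraries from 4 human cell lines. Lines of SCLC-P, the subtype of small cell lung cancer marked by POU2F3, were NCI-H526 and NCI-H1048. Those of multiple myeloma were MM1.S and NCI-H929. Cells of each line received DMSO, the solvent control, or 1 uM AU-15330, with 2 libraries per line and arm. AU-15330 is a PROTAC, a molecule that brings target proteins to the ubiquitin-proteasome system, and it degrades SMARCA2, SMARCA4 and PBRM1, which are the ATPases and a bromodomain subunit of the mSWI/SNF chromatin remodelling complexes. The comparison asks which transcripts changed when these proteins were removed. Sample titles gave 24 h of treatment, whereas other descriptions of the samples gave 12 h, 12 to 24 h or 4 to 12 h, so the duration is uncertain. No genetic change was named in the labels, and each line stands for a single culture model of its disease. For the SCLC-P lines the study names biological replicates in a figure of RNA sequencing after 12 h of treatment. For its 24 h data of these lines it gives no kind of replicate, so the status of these libraries is uncertain. For the myeloma lines no source used here says that the libraries of an arm came from separate cultures, so p-values there measure only the spread between these libraries. Ribosomal RNA was depleted for the MM1.S libraries, while the other lines were prepared with poly(A) selection. For that reason no level was tested across lines, and every fold change compares arms of a single line. Since AU-15330 acts on proteins, the transcripts of its targets do not check the labels.

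Values are deposited under the name CPM but summed to between 0.829 and 1.19 M per library, with a geometric mean of 1.00 M. They are called scaled values here, and a total shows how a library was scaled, not how deeply it was sequenced. The steps between low values gave an estimated depth of 12.0 to 14.0 M reads (M for mega) in NCI-H929, 16.8 to 32.4 M in MM1.S, 33.3 to 39.2 M in NCI-H1048 and 31.5 to 43.0 M in NCI-H526. Treated libraries of NCI-H929 summed to 1.00 and 1.02 M against 1.17 and 1.19 M with DMSO, and those of MM1.S to 0.829 and 0.845 M against 0.971 and 1.00 M. Line markers matched the labels. POU2F3, the factor that defines SCLC-P, averaged 1284 and 567 in the DMSO libraries of NCI-H526 and NCI-H1048 and 0.038 and 0.67 in those of NCI-H929 and MM1.S, whereas the plasma cell factor IRF4 averaged 1835 and 1504 in the myeloma lines and 0.20 and 1.59 in the SCLC-P lines.

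Mitochondria translate the few messages of their own genome, which encode core subunits of the respiratory chain and the ATP synthase. Their ribosome holds RNAs made inside the organelle, while its proteins are encoded in the nucleus, made in the cytosol and imported. The small subunit reads the message, the large subunit joins amino acids, and many of the proteins have counterparts in bacterial ribosomes while others are found only in mitochondria.

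AU-15330 lowered nearly all mitochondrial ribosomal protein transcripts in both myeloma lines and did not lower them as a group in either SCLC-P line. In NCI-H929, 46 of 48 tested large subunit members and 27 of 29 small subunit members fell, with median log2 fold changes of -0.68 and -0.72. Of all 13115 genes tested in that line, 37.6% fell and 38.4% rose, with a median of 0.04. In MM1.S, 43 of 49 large and 25 of 29 small subunit members fell, with medians of -0.65 and -0.58, against 40.2% of all 13838 genes that fell, 33.9% that rose and a median of -0.03. In both lines, 0 members rose by limma-trend at an adjusted p under 0.05, and 0 were higher at an unadjusted p under 0.05. The test compared log2(scaled value + 0.5) between arms within a line, for genes with a mean of at least 1, with Benjamini-Hochberg adjustment over all genes tested. Folds on this scale understate the change of low genes, and in bulk RNA fewer cells and less RNA per cell cannot be told apart.

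**Figure D1:**
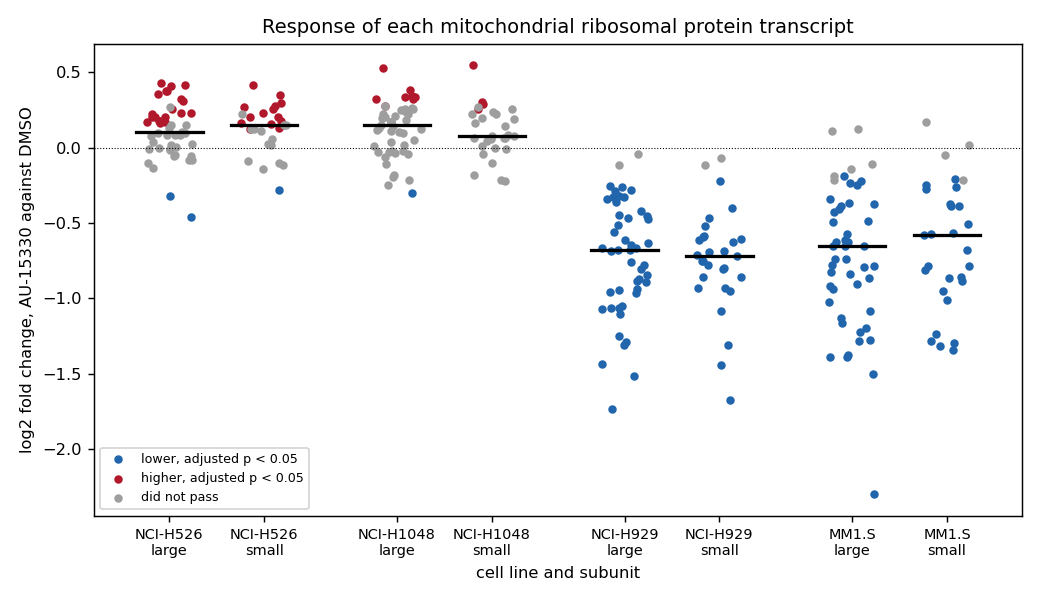
Log2 fold change of AU-15330 against DMSO (vertical axis) of each tested member, by line and by the subunit in its name (horizontal axis). Each point is a member, coloured by its call, with a random horizontal offset, and black lines are medians. Medians lie between -0.72 and -0.58 in the myeloma lines and between 0.08 and 0.15 in the SCLC-P lines.

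The fall was large enough to appear in the sums over each subunit. In NCI-H929 the large subunit members summed to 2971 and 3058 with DMSO and to 1784 and 1814 with AU-15330, a ratio of means of 0.597. In MM1.S the sums were 2120 and 2189 with DMSO and 1293 and 1299 with AU-15330, a ratio of 0.601. The small subunit sums changed by ratios of 0.617 and 0.646 in the same lines. As a share of each library's total, the large subunit went from 0.256% to 0.178% in NCI-H929 and from 0.219% to 0.155% in MM1.S, so the treated arms were also lower when the smaller library totals were taken into account. Arms did not overlap for most members, since both treated libraries lay below both DMSO libraries for 76 of 77 members in NCI-H929 and 72 of 78 in MM1.S, against 42.7% and 45.5% of all genes.

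Scaling every library to the same total replaces the scaling of the deposited values. It raised the median of all genes by 0.21 in NCI-H929 and 0.22 in MM1.S. Of the genes called in either direction, 62.7% were then higher in NCI-H929 and 60.0% in MM1.S, against 50.5% and 45.7% as deposited. These are shares of called genes and not of all genes tested. The share of all genes tested that fell under that scaling is not given here, so the member counts below lack that background. Under that scaling 37 large and 26 small subunit members were lower in NCI-H929, and 34 large and 20 small subunit members were lower in MM1.S, where 2 members of each subunit were now higher. The medians of the large and small subunit became -0.46 and -0.50 in NCI-H929 and -0.42 and -0.35 in MM1.S. Taken relative to the median of all genes, the large subunit median was -0.72 as deposited and -0.71 with equal totals in NCI-H929, and -0.62 and -0.61 in MM1.S.

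MRPL12, the protein of the flexible stalk where translation factors bind the large subunit, had the lowest log2 fold change of all members in both myeloma lines. The gene lies on the forward strand at chr17:81703367-81707517 (GRCh38). In NCI-H929 its scaled values were 110.8 and 119.3 with DMSO and 33.6 and 35.1 with AU-15330 (log2 fold change -1.73, SE 0.06, limma adjusted p = 1.1e-11). In MM1.S they were 81.6 and 80.5 with DMSO and 15.7 and 16.5 with AU-15330 (-2.30, SE 0.07, limma adjusted p = 7.7e-10). All treated libraries of these lines lay far below their DMSO libraries, and the fitted change was -69.9% in NCI-H929 and -79.7% in MM1.S. The same gene read 78.5 and 78.9 against 73.2 and 78.0 in NCI-H526 and 72.4 and 74.5 against 68.0 and 56.4 in NCI-H1048. Neither SCLC-P line passed the test for MRPL12 (adjusted p = 0.30 and 0.081).

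Other large subunit members fell strongly too. MRPL17, which sits near the exit of the nascent chain, lies at chr11:6680385-6683340 on the reverse strand. It read 64.5 and 65.8 with DMSO and 21.0 and 24.1 with AU-15330 in NCI-H929, and 36.9 and 39.9 against 12.5 and 14.0 in MM1.S. Its log2 fold changes of -1.51 and -1.50 were almost equal in the myeloma lines, while in NCI-H526 MRPL17 rose by 0.17 (0.16 with an adjusted p of 0.099 without DMSO replicate 2). MRPL4, whose protein lines the tunnel, was at 120.3 and 121.1 with DMSO and 40.7 and 48.5 after treatment in NCI-H929, and at 49.1 and 48.8 against 17.5 and 19.6 in MM1.S. The arms were well apart for MRPL4 in both lines, with log2 fold changes of -1.43 and -1.38. MRPL36, a small zinc-binding protein with a bacterial counterpart, fell from 31.4 and 31.6 to 11.6 and 11.9 in MM1.S (-1.39) and by 0.96 on the log2 scale in NCI-H929. MRPL18, of the central protuberance, fell by 1.29 and 1.39 on the log2 scale in NCI-H929 and MM1.S.

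In the small subunit the lowest log2 fold changes belonged to MRPS12, MRPS2 and MRPS26 in NCI-H929 and to MRPS12, MRPS26 and MRPS24 in MM1.S. MRPS12, of the decoding centre, read 29.7 and 24.8 with DMSO and 8.69 and 7.70 with AU-15330 in NCI-H929 (log2 fold change -1.67, SE 0.13, limma adjusted p = 3.9e-08). In MM1.S it read 15.5 and 15.6 against 6.01 and 5.66 (-1.34, SE 0.11, limma adjusted p = 7.4e-07). The MRPS12 arms were separate in both myeloma lines and overlapped in NCI-H1048, where 9.55 and 10.3 stood beside 11.3 and 8.65. MRPS2 fell from 91.1 and 98.0 to 32.8 and 36.4 in NCI-H929 (-1.44) and from 38.8 and 38.6 to 15.1 and 16.1 in MM1.S (-1.28). Exons of MRPS2 overlap those of PIERCE1 on the other strand, and the counting is not stated to use strand, so reads from the overlapping stretch may be shared. MRPS26, found only in mitochondria, fell by 1.31 and 1.32 on the log2 scale in NCI-H929 and MM1.S. MRPS24, of the channel where the message enters, fell by 1.29 in MM1.S and by 0.71 in NCI-H929 on that scale.

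**Figure D2:**
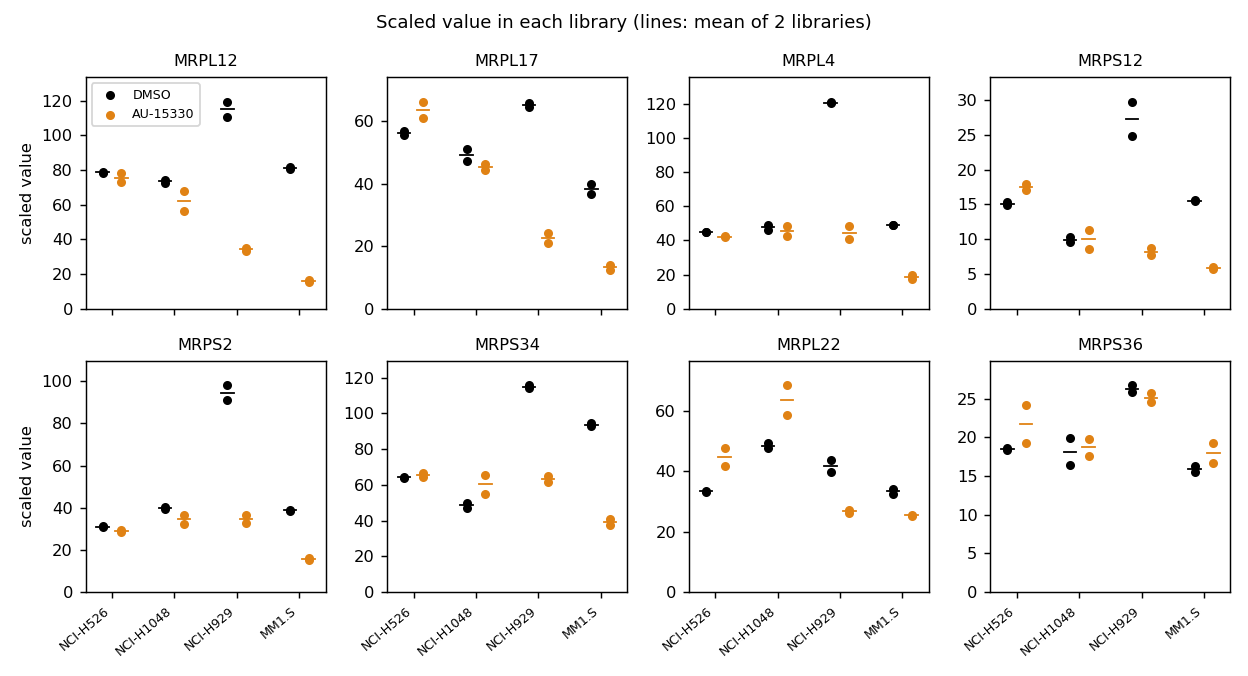
Scaled value (vertical axis, from 0) of 8 members in each library, by cell line (horizontal axis). Points are single libraries with DMSO (black) or AU-15330 (orange), and short lines are means of 2 libraries. For MRPL12 in MM1.S the DMSO libraries sit at 81.6 and 80.5 and the treated ones at 15.7 and 16.5, whereas MRPS36 shows no comparable drop in any line.

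Falls of at least 2-fold were reached by 11 large and 4 small subunit members in NCI-H929, where 12.8% of all genes fell that far, and by 13 large and 6 small subunit members in MM1.S, where the share was 14.3%. Members listed as having bacterial counterparts and the remaining members both fell. The remaining small subunit members include MRPS36, MRPS18A and MRPS18B, which are described further on. They also include MRPS30, which is placed in the large subunit despite its name. In NCI-H929, 29 of 29 conserved large subunit members fell (median -0.85) and 17 of 19 others (median -0.67), while in MM1.S 27 of 29 and 16 of 20 fell, with medians of -0.83 and -0.53. Of the conserved small subunit members 14 of 15 fell in each myeloma line, with medians of -0.71 and -0.81, and of the others 13 of 14 and 11 of 14 fell, with medians of -0.76 and -0.45. With equal library totals 24 of 29 conserved large subunit members fell in NCI-H929, and 23 fell and 1 rose in MM1.S. For the conserved small subunit 14 of 15 fell in NCI-H929, and 12 fell and 1 rose in MM1.S. Without MRPS36, MRPS18A and MRPS18B, 11 of 11 remaining members named for the small subunit, MRPS30 among them, fell in NCI-H929 as deposited. In MM1.S 9 of 11 fell, and with equal library totals the counts were 10 and 7. With MRPS18A and MRPS30 counted as large and MRPS36 left out, all 16 counts by line, subunit and direction stayed within 1.5 times. The classes were not tested against each other.

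In all, 66 of the 77 members tested in both myeloma lines fell in both, 41 of the large and 25 of the small subunit, against 31.4% of all genes. A further 9 members fell in 1 of these lines, among them MRPL45, which was tested in MM1.S alone. The 3 members called in neither were MRPL53, MRPS14 and MRPS36, named here because of their small number. MRPS36 is a member by name alone, since its protein is a subunit of the alpha-ketoglutarate dehydrogenase complex and not of the ribosome. It read 26.7 and 25.9 with DMSO and 24.5 and 25.7 with AU-15330 in NCI-H929 and 15.5 and 16.3 against 16.8 and 19.3 in MM1.S. As deposited MRPS36 did not pass in any line, with log2 fold changes between -0.07 and 0.22. With equal library totals it was higher in NCI-H526 (0.27) and MM1.S (0.40) and did not pass in the other lines. The members of the MRPS18 family fell in both myeloma lines. MRPS18C, the form that stands at the bacterial position, changed by -0.86 in NCI-H929 and -0.26 in MM1.S, MRPS18B by -0.61 and -0.21, and MRPS18A, whose protein sits in the large subunit despite its name, by -0.78 and -0.68. Without DMSO replicate 2 of MM1.S the values there were -0.19 for MRPS18C and -0.13 for MRPS18B, and neither passed (limma adjusted p = 0.12 and 0.23). MRPS18B also missed the threshold without AU-15330 replicate 2 (-0.18, limma adjusted p = 0.072). MRPS18C was at -0.03 with equal library totals (limma adjusted p = 0.71), and for MRPS18B the MM1.S value did not keep its sign with equal library totals (0.022, limma adjusted p = 0.78).

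MRPL45, which helps to attach the ribosome to the inner membrane, was the single member not tested in every line. It was listed at 0 in all 4 NCI-H929 libraries and between 0 and 0.159 in NCI-H1048, but read 12.4 to 13.6 in NCI-H526 and 12.5 to 17.6 in MM1.S, where it fell by 0.34 on the log2 scale. The gene lies at chr17:38297023-38323217. No cause of the zeros was tested, and a listed 0 may be a failed estimate.

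In the SCLC-P lines the members changed little, and more of those called were higher than lower. In NCI-H526, 20 of 49 large and 15 of 29 small subunit members rose and 2 and 1 fell, with medians of 0.10 and 0.15, against 29% of all 13685 genes that rose and 29.8% that fell. In NCI-H1048, 8 of 48 large and 4 of 29 small subunit members rose and 1 and 0 fell (1 small subunit member was lower at an unadjusted p under 0.05), with medians of 0.15 and 0.08. The share of all 13691 genes in NCI-H1048 was 16.9% higher and 18.2% lower. The large subunit count that rose there was near that share, and the small subunit count was below it. Both treated libraries lay above both DMSO libraries for 44 of 78 members in NCI-H526 and 40 of 77 in NCI-H1048, against 39.6% and 35.4% of all genes. They lay below both for 11 of 78 and 8 of 77 members, against 39.7% and 32.7% of all genes.

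These counts rested on single libraries. With a library left out, 1 arm holds a single library, which is assumed to vary like the other arm, so such counts and p-values rest on a thin estimate of the spread. The share of all genes called in such fits is not given here. The counts therefore show dependence on libraries and are not set against a background. In NCI-H1048 the number of large subunit members that rose was 0 without DMSO replicate 1, 2 without DMSO replicate 2 and 19 without AU-15330 replicate 2, and the small subunit number was 1, 1 and 8. In NCI-H526 the small subunit number was 9 without either DMSO library, and the numbers that fell became 7 large and 4 small without AU-15330 replicate 2. In the myeloma lines leaving out any library left 44 to 46 large and 26 to 28 small subunit members lower in NCI-H929 and 39 to 43 and 22 to 25 lower in MM1.S.

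Of the 77 members tested in both SCLC-P lines, 8 rose in both, which is near the share of 9.85% of all genes. These were MRPL11, MRPL18, MRPL20, MRPL22, MRPL27, MRPL52, MRPS6 and MRPS15. MRPL22, another protein of the tunnel exit, read 33.2 and 33.4 with DMSO and 41.6 and 47.6 with AU-15330 in NCI-H526 (log2 fold change 0.41, SE 0.07, limma adjusted p = 0.00042). In NCI-H1048 it read 47.5 and 49.4 against 68.4 and 58.7 (0.38, SE 0.10, limma adjusted p = 0.0079). Treated libraries were the higher ones in both SCLC-P lines, while in both myeloma lines MRPL22 fell, by 0.63 and 0.39 on the log2 scale (-0.15 in MM1.S with equal library totals, adjusted p = 0.061). The rise of MRPL22 in NCI-H1048 missed the threshold without DMSO replicate 1 (0.36, limma adjusted p = 0.14) and without DMSO replicate 2 (0.41, limma adjusted p = 0.071). MRPL27, whose protein reaches toward the peptidyl transferase centre, rose by 0.53 in NCI-H1048 (0.43 without DMSO replicate 1, limma adjusted p = 0.061) and by 0.31 in NCI-H526 on the log2 scale. MRPS6, of the platform of the small subunit, rose by 0.35 in NCI-H526 and 0.29 in NCI-H1048, where it lay between 0.18 and 0.32 and did not pass without DMSO replicate 1, DMSO replicate 2 or AU-15330 replicate 1, and it fell by 0.75 and 1.01 in NCI-H929 and MM1.S. Other members among the highest called in an SCLC-P line were MRPL24 (0.43), MRPL16 (0.42), MRPS28 (0.42) and MRPS18C (0.30) in NCI-H526 and MRPS11 (0.55), MRPL52 (0.34) and MRPS34 (0.30) in NCI-H1048, where MRPL52 rose in NCI-H526 as well. In NCI-H1048 neither MRPL52 nor MRPS34 passed without DMSO replicate 1 (0.29 and 0.35, limma adjusted p = 0.28 and 0.15) or DMSO replicate 2 (0.39 and 0.26, limma adjusted p = 0.10 and 0.31), and MRPS34 did not without AU-15330 replicate 1 (0.17, limma adjusted p = 0.13). Exons of MRPS34 overlap those of EME2 on the other strand.

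Only 4 members fell in an SCLC-P line by the main test. All 4 also fell in both myeloma lines, as did 66 of the 77 members tested in both. MRPL58, a peptidyl-tRNA hydrolase built into the large subunit, went from 29.7 and 28.6 to 20.6 and 21.5 in NCI-H526 (log2 fold change -0.46). It read 24.8 and 27.1 against 25.3 and 25.2 in NCI-H1048, where both treated libraries lay between the DMSO libraries. MRPL35 (-0.32) and MRPS24 (-0.28) fell in NCI-H526 and MRPL30 (-0.30) in NCI-H1048. MRPL30 did not pass there without DMSO replicate 1 (-0.32, limma adjusted p = 0.19) or DMSO replicate 2 (-0.27, limma adjusted p = 0.26), nor in MM1.S without DMSO replicate 2 (-0.20, limma adjusted p = 0.091) or with equal library totals (-0.02). No member had the same call in all 4 lines, by limma-trend at an adjusted p under 0.05.

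The contrast between the disease groups was tested directly, as the mean response of the SCLC-P lines minus that of the myeloma lines in one fit. This difference was positive and passed for 47 of 48 large and 27 of 29 small subunit members, with medians of 0.87 and 0.84, against 41.5% of all 11059 genes higher and 34.6% lower and a median of 0.05. The members that did not pass were MRPL40, MRPS14 and MRPS36. The difference was 1.86 (SE 0.08, limma adjusted p = 5.7e-12) for MRPL12 and 1.63 (SE 0.10, limma adjusted p = 3.5e-10) for MRPL18, followed by MRPS12 at 1.61. With only 2 lines of each disease, and with the myeloma lines prepared by different library methods, the contrast describes these 4 lines.

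The myeloma lines were alike in the order of their members. Across 77 members the log2 fold changes of NCI-H929 and MM1.S had a Pearson r of 0.71 and a Spearman rho of 0.68, compared with 0.31 and 0.30 between NCI-H526 and NCI-H1048. These values describe genes measured in the same libraries, which are not independent replicates. No correlation over all genes is given for either pair, so it is not shown whether this likeness is particular to the members. Member changes were smaller in the SCLC-P lines, and the part of this in their lower r was not tested. Within the myeloma pair, the response in MM1.S minus that in NCI-H929 was higher for 9 large and 7 small subunit members and lower for 7 and 3, against 20.1% and 28.1% of all 12138 genes. MM1.S and NCI-H929 also differ in library preparation, so line and preparation cannot be told apart in these differences. MRPS22, found only in mitochondria, fell from 70.5 and 70.8 to 34.9 and 31.4 in NCI-H929 and from 31.5 and 33.6 to 27.9 and 26.7 in MM1.S, a difference of 0.83 (SE 0.10, limma adjusted p = 7.1e-05). Exons of MRPS22 overlap those of COPB2 on the other strand. The fall of MRPS22 in MM1.S missed the threshold without DMSO replicate 2 (-0.20, limma adjusted p = 0.10) and with equal library totals (-0.02). MRPL1, of the stalk on the opposite side from MRPL12, fell by 0.67 in NCI-H929 and did not pass in MM1.S (0.11), a difference of 0.78 with an adjusted p of 0.00025 by limma. MRPL41 went the other way, with 47.8 and 45.0 against 36.1 and 39.9 in NCI-H929 and 24.3 and 25.7 against 10.5 and 12.6 in MM1.S, a difference of -0.80 (SE 0.14, limma adjusted p = 0.00069). MRPL24, of the tunnel exit, differed by -0.65 between these lines.

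**Figure D3:**
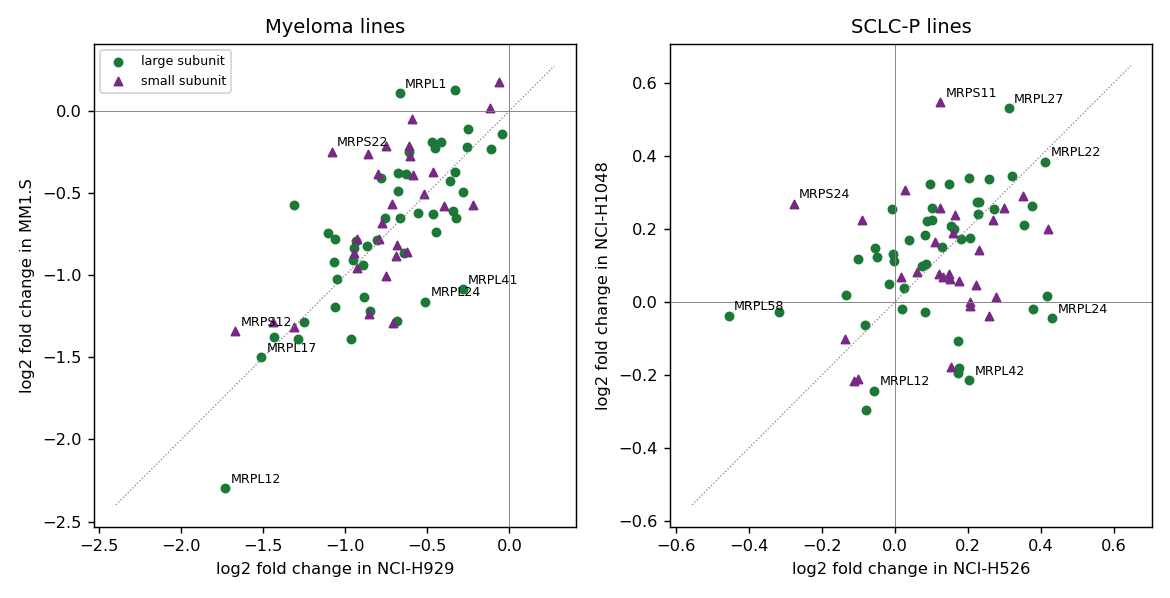
Log2 fold change of each member in NCI-H929 against MM1.S (left) and in NCI-H526 against NCI-H1048 (right), with green circles for the large and purple triangles for the small subunit. The dotted line marks equal change, and the axis ranges differ between the panels. Pearson r was 0.71 on the left, with MRPL12 at -1.73 and -2.30, and 0.31 on the right.

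Between the SCLC-P lines, the response in NCI-H1048 minus that in NCI-H526 was higher for 1 large and 2 small subunit members and lower for 5 and 1, against 15.5% and 13.4% of all 12544 genes. MRPS24 read 58.6 and 56.7 with DMSO and 45.4 and 49.7 with AU-15330 in NCI-H526 and 37.5 and 39.8 against 51.6 and 42.1 in NCI-H1048, a difference of 0.55 (SE 0.13, limma adjusted p = 0.0097). The arms of MRPS24 were thus separate in opposite directions, although NCI-H1048 alone did not pass the test (adjusted p = 0.069). Without AU-15330 replicate 1 of NCI-H526 its difference was 0.48 (limma adjusted p = 0.050). MRPS11 differed by 0.42, MRPL24 by -0.48 (-0.39 without AU-15330 replicate 2 of NCI-H526, limma adjusted p = 0.052) and MRPL42 by -0.42. MRPL42 missed the threshold without either DMSO library or AU-15330 replicate 2 of NCI-H526 or DMSO replicate 2 of NCI-H1048, with values from -0.43 to -0.34. These counts also depended on single libraries, since the total for the large subunit was 1 without DMSO replicate 1 or AU-15330 replicate 2 of NCI-H526, 2 without its DMSO replicate 2 and 10 without AU-15330 replicate 2 of NCI-H1048. The small subunit total was 1 without AU-15330 replicate 1 of NCI-H526 and 5 without either treated library of NCI-H1048.

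Promoters of 5 members are shown because these genes cover the range of motif content and response. Each runs from 250 bases before to 50 bases after the RefSeq start on GRCh38.p14 and is written 5′ to 3′ on the gene's strand. They lie at chr17:81703117-81703416 (MRPL12, forward), chr11:6683291-6683590 (MRPL17, reverse), chr5:1799788-1800087 (MRPL36, reverse), chr16:1773085-1773384 (MRPS34, reverse) and chr5:154940823-154941122 (MRPL22, forward). Capitals mark matches on either strand to the E-box CACGTG, bound by MYC and related factors, to the NRF1 palindrome (the capitals in MRPL17), to the ETS core CCGGAAG, or to the YY1 motif AAGATGGCG.
MRPL12: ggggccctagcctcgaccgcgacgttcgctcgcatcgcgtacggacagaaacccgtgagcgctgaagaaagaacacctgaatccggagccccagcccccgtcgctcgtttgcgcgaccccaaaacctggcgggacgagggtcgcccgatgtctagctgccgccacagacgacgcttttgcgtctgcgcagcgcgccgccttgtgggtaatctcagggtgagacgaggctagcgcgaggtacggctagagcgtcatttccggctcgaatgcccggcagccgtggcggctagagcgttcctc
MRPL17: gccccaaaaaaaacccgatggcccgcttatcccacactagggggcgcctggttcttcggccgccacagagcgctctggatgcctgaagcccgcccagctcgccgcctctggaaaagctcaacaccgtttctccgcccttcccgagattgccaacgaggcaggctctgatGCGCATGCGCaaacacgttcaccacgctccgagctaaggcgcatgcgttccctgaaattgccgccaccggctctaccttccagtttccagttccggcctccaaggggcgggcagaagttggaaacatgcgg
MRPL36: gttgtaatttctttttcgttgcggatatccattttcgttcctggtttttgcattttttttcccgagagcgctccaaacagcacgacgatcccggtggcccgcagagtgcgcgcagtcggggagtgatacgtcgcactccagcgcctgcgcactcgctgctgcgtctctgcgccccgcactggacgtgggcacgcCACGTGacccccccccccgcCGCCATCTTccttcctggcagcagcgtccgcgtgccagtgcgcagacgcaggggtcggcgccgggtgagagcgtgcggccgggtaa
MRPS34: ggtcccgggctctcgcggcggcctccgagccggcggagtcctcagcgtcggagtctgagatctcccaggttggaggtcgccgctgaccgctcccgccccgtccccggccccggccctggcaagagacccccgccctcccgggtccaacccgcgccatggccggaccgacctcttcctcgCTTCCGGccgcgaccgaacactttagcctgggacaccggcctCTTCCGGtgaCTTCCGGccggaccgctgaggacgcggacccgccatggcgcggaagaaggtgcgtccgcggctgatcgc
MRPL22: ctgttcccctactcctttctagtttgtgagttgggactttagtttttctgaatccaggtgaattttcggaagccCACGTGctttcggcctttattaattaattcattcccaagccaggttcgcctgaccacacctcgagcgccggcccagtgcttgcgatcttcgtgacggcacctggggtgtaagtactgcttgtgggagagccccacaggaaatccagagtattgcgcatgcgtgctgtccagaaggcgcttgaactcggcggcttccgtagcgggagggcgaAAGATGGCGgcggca

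MRPL12, which fell most, held none of these motifs in this window. MRPL17 held the NRF1 motif, MRPL36 and MRPL22 an E-box and a YY1 motif each, and MRPS34 the ETS core 3 times. Of the 78 members 69 had an entry in the RefSeq promoter table. The ETS core was in 42.0% of their promoters, against 10.3% of all 35116 promoters and 21.7% of those of genes tested in all 4 lines. The YY1 motif was in 18.8% of member promoters, against 1.75% and 4.56%. The E-box was in 8.70%, against 7.26% and 10.7%, and the NRF1 motif in 1.45%, against 1.24% and 2.66%. Members with and without the ETS core changed alike in NCI-H929, with medians of -0.69 and -0.68, and in MM1.S, with -0.65 and -0.62. With the YY1 motif the medians were -0.71 and -0.68, against -0.68 and -0.65 without it, in the same order of lines. The 5 members with an E-box had a median of -0.86 in NCI-H929, against -0.68 without, and the 6 in MM1.S had -0.38, against -0.65. A match is a description of letters and not a bound site.

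MYC, a transcription factor known to drive genes of ribosome production, was read beside the members. Its scaled values were 299.8 and 316.5 with DMSO and 39.4 and 38.2 with AU-15330 in NCI-H929 (log2 fold change -2.97), and 527.3 and 532.2 against 15.4 and 14.9 in MM1.S (-5.09). In NCI-H1048 MYC fell as well, from 189.0 and 176.8 to 41.3 and 36.4 (-2.22), although the members there did not fall as a group. In NCI-H526 MYC was between 0.41 and 0.54 and was not tested, and MYCN, its relative, read 1622 and 1658 with DMSO and 1231 and 1283 with AU-15330 (-0.38). Line markers moved with treatment too, since 7 of 7 myeloma markers fell in both myeloma lines (4 of 7 in MM1.S with equal library totals). Of 7 SCLC-P markers, 4 fell and 3 rose in NCI-H526 and 6 fell and 0 rose in NCI-H1048. The part of these changes in the members' response was not tested.

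Genes that work with the mitochondrial ribosome were read from lists of their own. Of all genes tested as deposited, 37.6% fell and 38.4% rose in NCI-H929, and 40.2% fell and 33.9% rose in MM1.S. In NCI-H526 29.8% fell and 29% rose, and in NCI-H1048 18.2% fell and 16.9% rose. Its proteins with other names, DAP3, PTCD3, CHCHD1, AURKAIP1 and GADD45GIP1, fell in 5 of 5 cases in each myeloma line, with medians of -0.77 and -0.71, and 3 and 2 of them rose in NCI-H526 and NCI-H1048. GADD45GIP1, which sits at the tunnel exit, read 61.4 and 58.7 against 25.4 and 28.8 in NCI-H929, and 45.8 and 45.7 against 67.1 and 59.7 in NCI-H1048. It thus fell in the myeloma line and rose in the SCLC-P line, with log2 fold changes of -1.14 and 0.46. Of 10 translation factors, 7 fell and 2 rose in NCI-H929 and 6 fell and 1 rose in MM1.S (5 and 4 in MM1.S with equal library totals). TUFM, the elongation factor that delivers aminoacyl-tRNA, fell by 1.10 and 1.26 on the log2 scale in NCI-H929 and MM1.S, and GFM1, the factor that moves the ribosome along, by 0.95 and 1.15. MTRF1L, a release factor, fell in all 4 lines, with log2 fold changes of -0.56 in NCI-H526, -0.47 in NCI-H1048, -0.58 in NCI-H929 and -0.76 in MM1.S. It was the only translation factor that fell in either SCLC-P line, as 3 of 10 rose and 1 fell in NCI-H526, and 0 rose and 1 fell in NCI-H1048. Those that rose in NCI-H526 included MTRF1 (0.52).

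Among assembly factors and enzymes that modify the ribosomal RNA, 19 of 28 fell and 3 rose in NCI-H929, and 18 of 27 fell and 3 rose in MM1.S. With equal library totals 18 fell and 6 rose in NCI-H929, and 16 fell and 7 rose in MM1.S. In NCI-H526 4 of 28 fell and 7 rose, and in NCI-H1048 3 of 28 fell and 2 rose. All of these SCLC-P counts lay below the shares of all genes in the same line and direction. C1QBP, a matrix protein linked to ribosome assembly, read 265.9 and 272.9 with DMSO and 79.8 and 84.1 with AU-15330 in NCI-H929, and 167.5 and 171.0 against 28.7 and 25.1 in MM1.S. Its log2 fold changes of -1.71 and -2.63 stood beside -1.73 and -2.30 for MRPL12. Of 6 genes of mitochondrial transcription and mRNA handling, 6 fell in NCI-H929 and 5 in MM1.S. With equal library totals 5 fell in NCI-H929, and 4 fell and 1 rose in MM1.S. Those that fell as deposited included LRPPRC (-0.96 and -0.82) and its partner SLIRP (-1.58 and -1.18), which keep mitochondrial messages stable. Of the same 6 genes, 3 rose and 0 fell in NCI-H526, and 0 rose and 1 fell in NCI-H1048. The mRNAs of the mitochondrial genome did not share one direction in NCI-H929, where 6 of 13 rose and 3 fell. By contrast 10 of 13 fell in MM1.S (against 40.2% of all genes), 5 in NCI-H526 (against 29.8%) and 1 in NCI-H1048 (against 18.2%). With equal library totals 11 rose and 1 fell in NCI-H929, and 1 rose and 6 fell in MM1.S. Their sum took 7.57% and 7.52% of the total with DMSO and 9.42% and 9.58% with AU-15330 in NCI-H929, but 6.05% and 5.99% against 5.72% and 6.18% in MM1.S, where the arms overlapped. MT-CO2, a core subunit of cytochrome c oxidase, went from 10020 and 10437 to 12732 and 13392 in NCI-H929 and from 5643 and 5880 to 4446 and 5063 in MM1.S as deposited. With equal library totals the MM1.S values were 5279 and 5337 against 4872 and 5441, so the arms overlapped and MT-CO2 did not pass there (log2 fold change -0.04, limma adjusted p = 0.50).

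**Figure D4:**
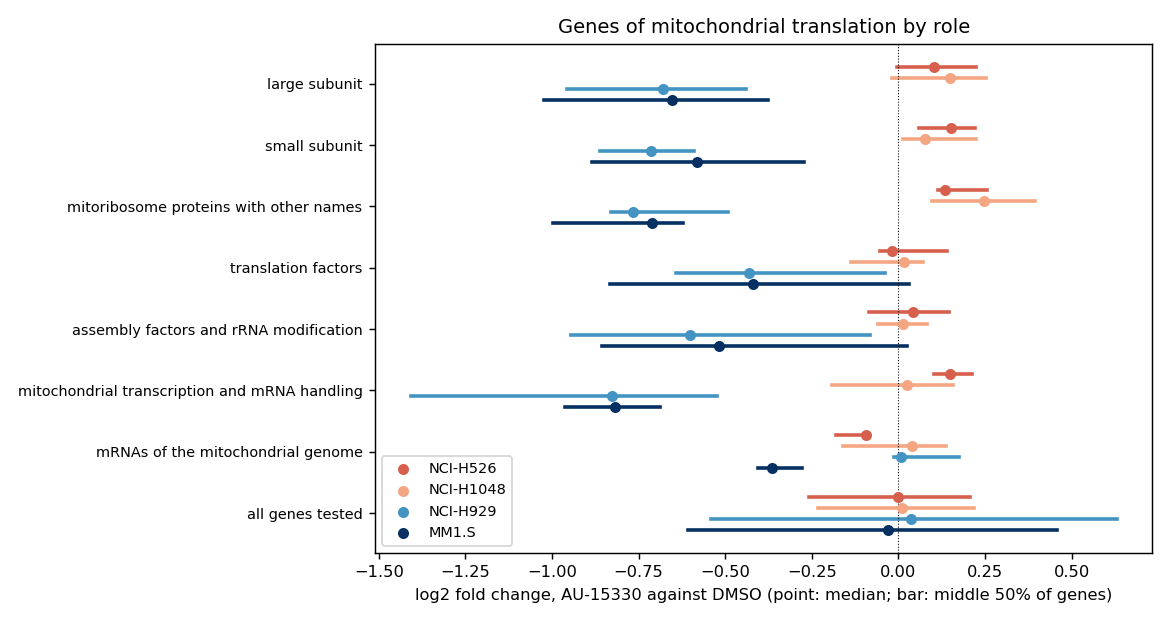
Log2 fold change of AU-15330 against DMSO (horizontal axis) for genes of mitochondrial translation, grouped by role (vertical axis), in 4 lines (colours). Points are medians over the genes of a list and bars span its middle 50%. Both subunits lie below 0 in NCI-H929 and MM1.S, while all genes tested have medians of 0.04 and -0.03 there.

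Per kilobase of the reference transcript, members differed widely in level with DMSO. As geometric means over the 4 lines, which differ in library preparation, the highest were MRPS21 (120.2 scaled units per kb), MRPL20 (100.7) and MRPL51 (96.0), and the lowest were MRPS33 (9.73), MRPS23 (9.32) and MRPL42 (9.14), whose reference transcripts are long at 4210, 5609 and 15557 bases. Single lines ordered the members differently, with MRPS21 highest in NCI-H526 (163.9) and NCI-H929 (190.2), MRPL51 in NCI-H1048 (134.1) and MRPS24 in MM1.S (131.4), and with MRPL50 lowest in NCI-H526 (6.47), MRPS33 in NCI-H1048 (4.77) and MRPL42 in NCI-H929 (9.18) and MM1.S (7.22). Levels per kb depend on the reference transcript taken, and shorter forms in use would place these genes higher. Of these genes MRPL42 fell in MM1.S by 0.19, a value that turned to 0.044 (limma adjusted p = 0.43) with equal library totals and was -0.16 (adjusted p = 0.061) without AU-15330 replicate 2. A named pseudogene was listed for 34 members, and 19 members had exons that overlap a gene on the other strand, so that their reads may be shared. For 9 members exons overlap a gene on the same strand, among them MRPS6 (with SLC5A3), MRPS28, MRPL30 and MRPL53, and reads there may be shared whatever the strand. The members lay on 21 chromosomes, with 8 on chromosome 17, the largest number on any.

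A neighbour whose start lies head to head within 500 bases was annotated for 17 members, and this look was chosen after the values were seen. Of the partners tested, 8 of 14 fell and 5 rose in NCI-H929 and 7 of 15 fell and 6 rose in MM1.S, while the members of the same pairs fell in 14 and 13 cases. Of all genes 37.6% fell and 38.4% rose in NCI-H929, and 40.2% fell and 33.9% rose in MM1.S. The median log2 fold change was -0.34 for partners and -0.87 for members in NCI-H929, and -0.16 and -0.78 in MM1.S. Within pairs, the member lay below its own partner in only 8 of 14 cases in NCI-H929 and in 11 of 15 in MM1.S.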

How the data were processed

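The authors deposited 1 table of scaled signal values per gene for 16 libraries, named CPM. Per the labels and the submitters' processing notes, reads were pseudoaligned to hg38 with kallisto, and edgeR and limma were used. The annotation release and the summing of transcripts to genes are not given in the sources used here. Low values were whole multiples of a library's step for 74.9 to 80.3% of values up to 20 steps (tolerance 0.1 of a step), so counts were not recovered and no count test was run.

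Values were tested as log2(value + 0.5) with limma-trend (limma 3.58.1, R 4.3.3) within each line, for genes with a mean of at least 1 over its libraries, and adjusted over all genes by Benjamini-Hochberg at 0.05. Differences between lines were contrasts in one fit of the lines concerned. The script was checked on simulated data. Named members were up to 3 highest and 3 lowest called per line and subunit, up to 2 each per difference, the MRPS18 family, MRPS36, and the 3 highest and 3 lowest levels per kb. The members and lists were chosen with earlier results of these data known. Positions came from GENCODE and promoters from RefSeq. Alternatives were equal totals, median-ratio scaling, a pseudocount of 1, no filter, a replicate block, one fit of all libraries and leaving out each library. A further alternative counted MRPS18A and MRPS30 as large and left out MRPS36.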

Additional observations from a re-analysis of the deposited data

Results flagged for a closer look

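These results were picked out because the same treatment gave different responses in different lines, by a test of the difference itself with limma. Between SCLC-P and myeloma lines, 47 large and 27 small subunit members differed (96.1% of 77, against 76.1% of all genes), with MRPL12 at 1.86 and MRPL18 at 1.63 on the log2 scale. Between MM1.S and NCI-H929, 16 large and 10 small subunit members differed (33.8%, against 48.3% of all genes), with MRPS22 at 0.83, MRPL1 at 0.78, MRPL41 at -0.80 and MRPL24 at -0.65. Library preparation differed between MM1.S and NCI-H929 as well, and cannot be told apart from the line. Between NCI-H1048 and NCI-H526, 6 large and 3 small subunit members differed (11.7%, against 28.9% of all genes), with MRPS24 at 0.55, MRPS11 at 0.42, MRPL24 at -0.48 and MRPL42 at -0.42. Groups of 2 libraries are too small to look for a library that stands apart within an arm.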

How the results depend on the processing

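The counts of fallen members in both myeloma lines and the difference between SCLC-P and myeloma stayed within 1.5 times under every alternative run. Counts in the SCLC-P lines did not. No share of all genes called under each alternative is given beside these counts, so they show dependence on the processing only. Members that rose in NCI-H526 were 12 large and 9 small without a filter, and 12 large and 7 small in one fit of all libraries, and 3 small subunit members fell with the replicate block. In NCI-H1048 the large subunit members that rose were 2 without a filter, 14 with the replicate block and 14 in one fit, those that fell were 2 with the block and 4 in one fit, and small subunit members that rose were 1 without a filter and 9 in one fit, where 2 fell. With equal totals 2 large and 2 small subunit members rose in MM1.S, and 5 small subunit members differed between NCI-H1048 and NCI-H526, against 6 with the replicate block. MRPL42 and MRPS18B changed sign in MM1.S with equal totals, to 0.044 and 0.022. The member medians moved by more than the spread between libraries with equal totals in both myeloma lines, to between -0.50 and -0.35, and kept their sign, as they did with median-ratio scaling or a pseudocount of 1 in NCI-H929 (-0.78 to -0.71) and without single libraries (-0.75 to -0.67 for the small subunit in NCI-H929 and -0.72 to -0.70 for the large subunit in MM1.S). Equal totals for the lists of related genes and the mRNAs of the mitochondrial genome, and the small subunit count without MRPS36, MRPS18A and MRPS18B, were chosen after seeing the data. The cause of these shifts was not tested.

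Each fit without a library takes the spread of the lone library from the other arms. The share of all genes called in these fits is not given here either. Such fits gave, in NCI-H526, 15 to 29 large subunit members that rose and 2 to 7 that fell, and 9 to 22 and 1 to 4 of the small subunit. In NCI-H1048 they gave 0 to 19 and 0 to 4 of the large and 1 to 8 and 0 to 2 of the small subunit. In NCI-H929 44 to 46 large and 26 to 28 small subunit members fell and 0 rose, and in MM1.S 39 to 43 and 22 to 25 fell while 0 large and 0 to 1 small subunit members rose. Differing members were 1 to 10 large and 1 to 5 small between the SCLC-P lines, 11 to 16 and 7 to 11 between the myeloma lines, and 46 to 48 and 27 to 28 between the diseases.

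Same-numbered libraries deviated together with a correlation of 0.01 in NCI-H526, 0.22 in NCI-H1048, -0.01 in NCI-H929 and -0.14 in MM1.S, and with 2 pairs per line the numbers were not taken as pairing. With the replicate block 43 large and 24 small subunit members fell in MM1.S. Exchanging the DMSO numbers there, an alternative chosen after seeing the data, gave 44 and 25. With 2 libraries per arm, small changes were detectable only where the libraries lay close together.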
